A study of Mus musculus with 20 samples.

Results

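Car3, Prok1, Selenbp2, Hsd3b2 and Serpina4-ps1 are 5 genes outside sterol synthesis whose liver RNA was much lower in fasted than in fed mice of either genotype. They were taken by name from the 55487 genes of the deposited count table, and all 5 were among the 16312 genes with enough counts to be tested. They were selected on the measured difference between fasted and fed libraries, so that difference is described below with no test. Liver RNA came from female mice on the C57BL/6N background, 15 weeks old, in 4 groups of 5 libraries: Plin2-null mice fasted for 24 h, Plin2+/+ mice fasted for 24 h, Plin2-null mice with chow and Plin2+/+ mice with chow. PLIN2 (perilipin 2) coats the lipid droplets of the hepatocyte. For 10 libraries the sample labels state only whether the mouse was fed or fasted; since the design names no genotype but Plin2+/+ and Plin2-/-, they were taken as Plin2-/- and are called Plin2-null. The sources used here do not say how the allele was made or whether it acts in the whole body. No label ties a library to a litter, cage or day, so each p-value reflects only the spread seen among these samples.

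The 5 genes have different roles. Car3 encodes carbonic anhydrase 3, a cytosolic enzyme that is abundant in rodent liver, fat and slow muscle and is a weak catalyst of carbon dioxide hydration. Hsd3b2 belongs to the 3beta-hydroxysteroid dehydrogenases, which oxidise and isomerise the ring of steroid hormones. Selenbp2 encodes a selenium-binding protein, known in mouse liver as a protein that acetaminophen metabolites attach to, and is a close copy of Selenbp1, a methanethiol oxidase. Prok1 encodes prokineticin 1, a secreted ligand of the receptors Prokr1 and Prokr2 with a known part in gut contraction and in growth of endothelial cells of endocrine glands. Serpina4-ps1 is annotated as an unprocessed pseudogene within a cluster of serine protease inhibitor genes. During a fast the liver lowers lipid and sterol synthesis, raises fatty acid oxidation and ketone production, and responds less to growth hormone, a hormone that also sets the sex-biased genes of mouse liver.

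Total counts ran from 25506471 to 65579038 per library. The targeted gene, Plin2, held 60.4 ± 21.6 TPM in Plin2-null fasted livers against 1019 ± 242 TPM in Plin2+/+ fasted livers, and 15.7 ± 5.21 TPM in Plin2-null fed livers against 197 ± 51.2 TPM in Plin2+/+ fed livers (SD, n = 5 each). Every library labelled without a genotype lay below every Plin2+/+ library of its feeding state, with 12.9 to 96.8 TPM against 137 to 1259 TPM. TPM, the deposited unit of transcript abundance, is scaled to gene length and to the same sum in each library. The hepatocyte marker Alb stood at 58403 to 126597 CPM (the count relative to the scaled library size) in all 20 libraries. A few libraries had a trend of log2 CPM with the GC content of the transcripts: the slope per unit of GC fraction was 2.67 in Plin2-null fasted replicate 4, -3.53 and -3.32 in Plin2+/+ fasted replicates 1 and 2, and -2.75 in Plin2-null fed replicate 4, against values between -1.3 and 1.88 in the other 16 libraries.

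Car3 was the most abundant of the 5 genes in fed livers. Its level was 19.2, 47.8, 9.4, 8.96 and 43.4 TPM in the 5 Plin2-null fasted livers, against 1202, 2786, 1462, 998 and 1588 TPM in the Plin2-null fed livers. It was 10.3, 12.2, 6.73, 14.3 and 3.01 TPM in the Plin2+/+ fasted livers, against 1852, 1268, 1852, 1731 and 1713 TPM in the Plin2+/+ fed livers. No fasted library came near a fed one: the lowest fed library held 20.9 times the level of the highest fasted library in Plin2-null mice and 88.9 times in Plin2+/+ mice. The mean level in fasted livers was 1.6% of that in fed livers in Plin2-null mice and 0.553% in Plin2+/+ mice. The fitted fasted minus fed difference was -5.68 ± 0.56 on the log2 scale in Plin2-null and -7.30 ± 0.60 in Plin2+/+ mice (SE). Even so, the fasted libraries still held 125 to 2313 Car3 counts each, so these low levels are not set by counting error. The gene (ENSMUSG00000027559) lies on the plus strand of chromosome 3 from 14863512 to 14872523 (GRCm38, GENCODE M21, the source of all gene positions below), and no other gene overlaps it.

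Hsd3b2 had fed levels within a narrow range. It was 0.709, 0.856, 0.656, 0.348 and 1.7 TPM in the Plin2-null fasted livers, against 22.6, 21.9, 27.2, 25.9 and 25.7 TPM in the Plin2-null fed livers. It was 0.577, 0.733, 0.297, 0.827 and 0.28 TPM in the Plin2+/+ fasted livers, against 34, 25.3, 21.6, 20.9 and 24.8 TPM in the Plin2+/+ fed livers. All 20 libraries therefore lay in a fasted range of 0.28 to 1.7 TPM or a fed range of 20.9 to 34 TPM, with nothing between. The fasted mean was 3.46% of the fed mean in Plin2-null mice and 2.14% in Plin2+/+ mice, and the fitted fasted minus fed differences were -4.56 ± 0.33 and -5.35 ± 0.34 on the log2 scale in these genotypes (SE). Hsd3b2 (ENSMUSG00000063730; chromosome 3, minus strand, 98709255 to 98724543) lies inside the span of Zfp697, a gene of the opposite strand with 35 to 133 counts per library. The strand setting of the counting is not known, so reads of the overlapping genes cannot be told apart with certainty. Zfp697 itself did not pass the test in either genotype, with fasted minus fed differences of -0.36 ± 0.23 in Plin2-null and -0.17 ± 0.23 in Plin2+/+ mice (log2, SE; edgeR adjusted p = 0.234 and 0.574).

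Selenbp2 varied widely between fed animals. Its level was 2.92, 0.807, 0.815, 0.862 and 2.11 TPM in Plin2-null fasted livers, against 121, 145, 30.3, 34.9 and 49 TPM in Plin2-null fed livers. In Plin2+/+ mice it was 1.3, 1.01, 0.993, 0.715 and 2.19 TPM in fasted livers, against 23.2, 41.4, 31.6, 114 and 85.7 TPM in fed livers. Of the 10 fed libraries 4 lay between 85.7 and 145 TPM and the other 6 between 23.2 and 49 TPM, in both genotypes. The fitted fasted minus fed difference was nearly the same in Plin2-null and Plin2+/+ mice, at -5.40 ± 0.61 and -5.42 ± 0.62 on the log2 scale (SE), and the fasted mean was 1.97% and 2.1% of the fed mean.

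Selenbp1, the close copy of Selenbp2, fell much less. It lies 229 kb away on the same strand and held 154 ± 21.3 TPM in Plin2-null fasted against 279 ± 46 TPM in Plin2-null fed livers, and 149 ± 26.2 TPM in Plin2+/+ fasted against 268 ± 56.2 TPM in Plin2+/+ fed livers (SD, n = 5 each). Its fasted minus fed difference was -0.57 ± 0.17 in Plin2-null and -0.68 ± 0.17 in Plin2+/+ mice (log2, SE; edgeR adjusted p = 0.0117 and 0.00251). In each library the Selenbp2 level was 0.518% to 1.99% of the Selenbp1 level in Plin2-null fasted and 0.501% to 1.39% in Plin2+/+ fasted livers, against 9.19% to 52.4% in Plin2-null fed and 9.41% to 35.8% in Plin2+/+ fed livers. The transcripts of both genes share 52% of the 50-base windows of Selenbp2, and how reads that match both were treated is not known, so the level of Selenbp2 is uncertain to that extent.

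**Figure D1:**
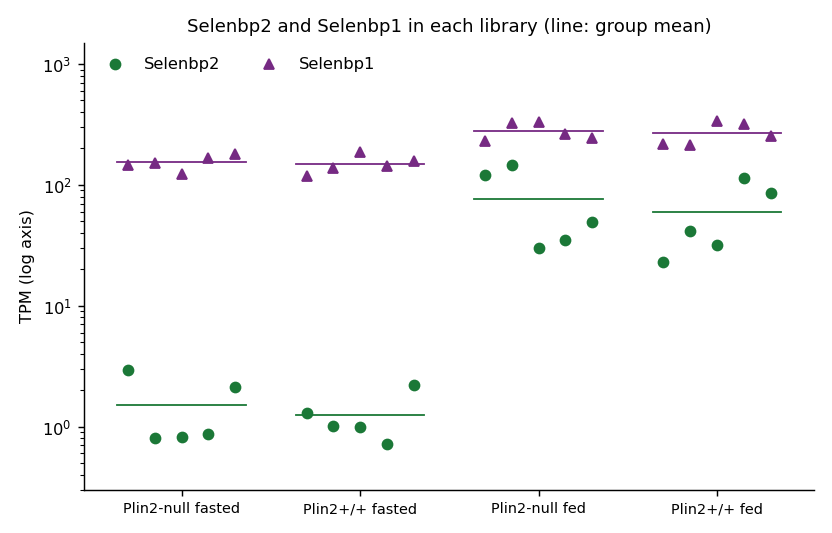
TPM of Selenbp2 (circles) and Selenbp1 (triangles) in each of the 20 libraries, on a log axis, with the group means as lines. Selenbp2 lies at 0.715 to 2.92 TPM in the fasted groups and at 23.2 to 145 TPM in the fed groups, while Selenbp1 stays between 118 and 335 TPM in all 4 groups.

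The windows around the annotated starts of these copies are shown because they are nearly the same sequence in front of genes with such different fasting values. Both are RefSeq sequences of GRCm38.p6, plus strand, 250 bases before to 50 bases after the start: chr3:94693323-94693622 for Selenbp2 and chr3:94932833-94933132 for Selenbp1. Capitals mark bases with no identical partner in the alignment of the pair.
Selenbp2: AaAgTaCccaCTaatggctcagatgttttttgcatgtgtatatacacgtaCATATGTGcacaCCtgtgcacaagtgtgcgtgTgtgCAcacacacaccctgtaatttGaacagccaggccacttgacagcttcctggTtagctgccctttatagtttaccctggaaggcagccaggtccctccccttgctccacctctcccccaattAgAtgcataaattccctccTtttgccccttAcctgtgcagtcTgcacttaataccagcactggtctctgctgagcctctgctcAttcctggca
Selenbp1: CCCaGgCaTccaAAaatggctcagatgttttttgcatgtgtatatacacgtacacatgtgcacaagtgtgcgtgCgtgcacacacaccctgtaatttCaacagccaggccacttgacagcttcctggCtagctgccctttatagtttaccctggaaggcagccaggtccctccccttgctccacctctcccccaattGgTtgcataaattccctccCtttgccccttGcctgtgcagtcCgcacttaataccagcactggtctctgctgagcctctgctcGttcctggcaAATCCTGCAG
Of 288 aligned bases, 273 (94.8%) were identical. By contrast, the Hsd3b2 window shared 80.5% of 231 aligned bases with a window assigned to Hsd3b5. That window starts at 98645485, outside the GENCODE span of Hsd3b5, 98618634 to 98630252. With the windows of Hsd3b3 the Hsd3b2 window shared at most 72% of its aligned bases. The counts are per gene, and which start site was used was not measured.

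Prok1 was the least abundant of the 5 genes. It was read 10, 2, 3, 3 and 25 times in the Plin2-null fasted libraries and 2, 1, 2, 1 and 6 times in the Plin2+/+ fasted libraries, against 1083, 348, 130, 92 and 443 times in the Plin2-null fed and 748, 743, 207, 251 and 813 times in the Plin2+/+ fed libraries. In TPM these were 0.225, 0.039, 0.0591, 0.0518 and 0.415 in Plin2-null fasted against 20, 7.05, 2.13, 2.06 and 8.92 in Plin2-null fed livers. They were 0.0387, 0.0118, 0.0398, 0.0295 and 0.128 TPM in Plin2+/+ fasted against 11.5, 11.9, 3.4, 5.27 and 11.9 TPM in Plin2+/+ fed livers. Fasted and fed libraries did not overlap, but the fed level itself spanned 2.06 to 20 TPM.

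At so few reads the depth limits how well the size of the Prok1 difference is known. Scaled for library size, the 43 counts summed over Plin2-null fasted livers were 41.6-fold lower than the 2096 of the fed livers (exact 95% interval 30.8 to 57.7), and the 12 counts of Plin2+/+ fasted livers were 180-fold lower than the 2762 of the fed livers (103 to 348). These intervals cover counting error only. The fitted fasted minus fed differences were -5.39 ± 0.74 in Plin2-null and -7.35 ± 0.87 in Plin2+/+ mice (log2, SE), and on the log2(TPM + 1) scale, which understates the change of low genes, they were -2.59 and -3.09. With each library left out in turn the Plin2-null difference ran from -6.16 (without Plin2-null fasted replicate 5) to -4.68 (without Plin2-null fed replicate 1), and the Plin2+/+ difference from -8.00 (without Plin2+/+ fasted replicate 5) to -7.05 (without Plin2+/+ fasted replicate 2). Prok1 (ENSMUSG00000070368; chromosome 3, minus strand, 107232797 to 107239707) overlaps the end of A630076J17Rik on the opposite strand, which had at most 2 counts in any library.

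The receptors of prokineticins were barely detected. Prokr1 held 0.0902 ± 0.0273 TPM in Plin2-null fasted and 0.0795 ± 0.0686 TPM in Plin2+/+ fasted livers, against 0.139 ± 0.0614 TPM in Plin2-null fed and 0.14 ± 0.034 TPM in Plin2+/+ fed livers (SD, n = 5 each). Its fasted minus fed difference did not pass the test (log2 -0.36 ± 0.48 in Plin2-null and -0.68 ± 0.48 in Plin2+/+ mice, SE; edgeR adjusted p = 0.584 and 0.274). Prokr2 had at most 4 counts in any library and the sister ligand Prok2 had 0 in all 20.

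The window around an internal annotated start of Prok1 is shown because it holds a repeated motif of a factor of the growth hormone pathway. It is the RefSeq sequence of GRCm38.p6 at chr3:107238603-107238902, minus strand, and capitals mark the matches to TTCNNNGAA, the element that STAT5 and its antagonist BCL6 bind.
Prok1: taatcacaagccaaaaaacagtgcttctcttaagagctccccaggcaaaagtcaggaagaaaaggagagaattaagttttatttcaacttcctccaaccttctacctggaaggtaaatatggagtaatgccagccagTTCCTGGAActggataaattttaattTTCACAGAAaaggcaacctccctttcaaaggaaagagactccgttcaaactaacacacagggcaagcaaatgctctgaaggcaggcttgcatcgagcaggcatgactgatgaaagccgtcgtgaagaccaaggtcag
The matches stand at positions -113 and -87 from that start, and 8.3% of 32851 promoter windows of the same length hold at least 1 match. The other Prok1 window and the windows of Selenbp2 and Hsd3b2 held no match to this element. In all 8 elements were searched, on both strands, in the windows of Prok1, Selenbp2 and Hsd3b2, the 3 of the 5 genes with an entry. The forkhead element TGTTTAC (in 3.65% of all windows), the C/EBP palindrome TTGCNNCAA (2.08%), the HNF4 element CAAAGTCCA (0.475%), the E-box CACGTG (7.15%) and the cAMP response element TGACGTCA (1.79%) had no match in them. The glucocorticoid receptor half-site TGTTCT (19%) had 1 match in the Hsd3b2 window and 1 in the other Prok1 window, and the TATA box TATAAA (13.6%) had 1 match in that Prok1 window and 1, on the reverse strand, in the Selenbp2 window. No match overlapped another. A match is a run of letters and not a measured binding site.

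Serpina4-ps1, the pseudogene, was the second most abundant of the 5 in fed livers and varied widely. Its level was 13.9, 1.62, 2.23, 2.83 and 11.6 TPM in Plin2-null fasted livers, against 276, 91, 107, 27.1 and 214 TPM in Plin2-null fed livers. It was 4.53, 5.42, 4.16, 5.27 and 12.8 TPM in Plin2+/+ fasted livers, against 244, 174, 22.6, 142 and 210 TPM in Plin2+/+ fed livers. The groups came closest here: the lowest fed library held 1.95 times the highest fasted one in Plin2-null and 1.77 times in Plin2+/+ mice, although the means differed 22.2-fold and 24.6-fold. The fitted fasted minus fed differences were -4.26 ± 0.75 in Plin2-null and -4.46 ± 0.75 in Plin2+/+ mice (log2, SE). Serpina4-ps1 (ENSMUSG00000092075) lies on the plus strand of chromosome 12 from 104080649 to 104086724, overlaps no other gene, and shares none of its 50-base windows with another annotated transcript, as is also the case for Car3 and Prok1. Of the Hsd3b2 windows, 25.5% were shared.

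**Figure D2:**
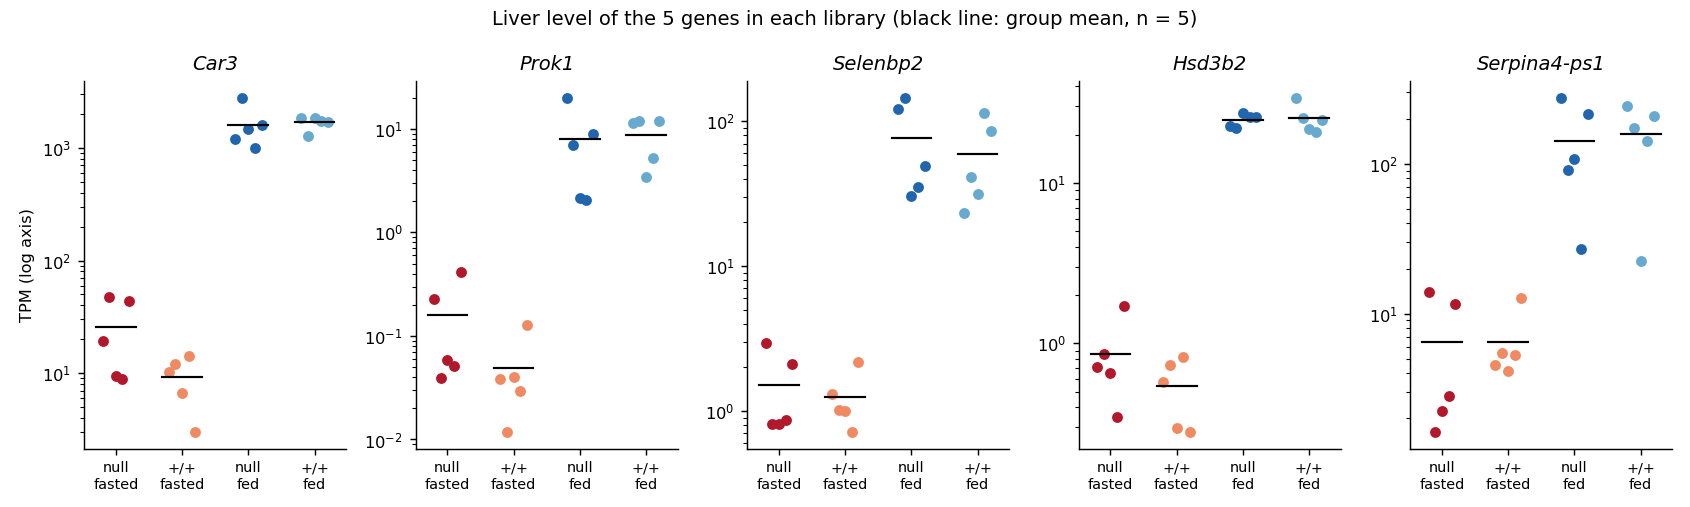
TPM of the 5 genes in each library, on log axes, with 1 point per library and the group mean (n = 5) as a black line. In every gene and genotype each fasted library lies below each fed library, and the 10 fed libraries of Hsd3b2 lie between 20.9 and 34 TPM.

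Not overlapping was itself common. Every fasted library lay below every fed library in 11.8% of all tested genes in Plin2-null and 13.5% in Plin2+/+ mice, and 18.1% and 21.7% were called lower (edgeR adjusted p under 0.05). The depth of the difference was rarer: a fitted log2 difference under -4 was found in 0.215% of tested genes (35) in Plin2-null and in 0.398% (65) in Plin2+/+ mice. As the 5 genes were chosen for this difference, nothing is read from their place in it.

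The choice drew on the 8 most negative fasted minus fed differences of each genotype, among genes called lower whose groups did not overlap, whose mean reached 5 CPM and whose symbol is not a predicted-gene name. Of 1063 such genes in Plin2-null mice, Car3 ranked 2, Selenbp2 3, Prok1 4, Hsd3b2 5 and Serpina4-ps1 7. Rank 1 in these mice was held by Hsd3b5, which is not among the 5. Gbp10, an interferon-induced GTPase, stood just inside at -4.21 ± 0.48 (log2, SE). Of 1177 such genes in Plin2+/+ mice, Prok1 ranked 1, Car3 2, Selenbp2 6, Hsd3b2 7 and Serpina4-ps1 14, and Hsd3b5 held rank 3. Sqle, an enzyme of sterol synthesis, stood just inside at -4.97 ± 0.36 and Thrsp, a regulator of lipid synthesis, just outside at -4.86 ± 0.47. Serpina4-ps1 was thus taken from Plin2-null mice alone, and the mean of Prok1, 5.07 CPM, was close to the minimum.

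Compared per length, the order of the mean TPM was the same in all 4 groups. Car3 was above Serpina4-ps1, Serpina4-ps1 above Selenbp2, Selenbp2 above Hsd3b2 and Hsd3b2 above Prok1. In fed livers Car3 did not overlap Serpina4-ps1 and Hsd3b2 did not overlap Prok1, whereas Serpina4-ps1 and Selenbp2 overlapped in both genotypes, and Selenbp2 and Hsd3b2 in Plin2+/+ mice. In fasted livers Car3 overlapped Serpina4-ps1, and Selenbp2 overlapped Hsd3b2, in both genotypes, while the other neighbours in this order overlapped in Plin2-null mice alone.

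The next comparison asks whether lack of PLIN2 shifted these genes, a contrast that the choice of the 5 genes did not use, although it shares its libraries with the fasting contrasts. None of the 5 was called in either feeding state. In fasted livers the share of all tested genes called in either direction was 3.24% (528 genes), and in fed livers it was 0.0184% (3 genes). Car3 had the lowest p: its level was 25.8 ± 18.7 TPM in Plin2-null fasted against 9.3 ± 4.48 TPM in Plin2+/+ fasted livers (SD, n = 5 each), a fitted difference of 1.45 ± 0.47 on the log2 scale (SE; 95% interval 0.52 to 2.37; edgeR adjusted p = 0.0853, unadjusted p = 0.00676). Of the 5 Plin2-null fasted libraries 3 lay above all 5 Plin2+/+ fasted libraries, and the other 2 lay inside their range. This difference did not pass in the main fit, and it passed in 2 of 28 alternative settings. With DESeq2 the difference was 1.43 and the adjusted p 0.0241, and without Plin2-null fasted replicate 4 it was 1.68 and the edgeR adjusted p 0.0422, while over all 20 libraries left out in turn it ran from 1.05 to 1.68. Over all 28 alternative settings its adjusted p lay between 0.0241 and 0.228.

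The other 4 genes did not differ detectably between genotypes in fasted livers, with wide intervals. Prok1 was at 0.158 ± 0.163 TPM in Plin2-null and 0.0495 ± 0.0452 TPM in Plin2+/+ fasted livers (SD, n = 5 each), and its fitted difference was 1.77 ± 1.21 (log2, SE; 95% interval -0.59 to 4.14; edgeR adjusted p = 0.375). It was 1.00 without Plin2-null fasted replicate 5 and 2.42 without Plin2+/+ fasted replicate 5. Hsd3b2 was at 0.855 ± 0.509 TPM in Plin2-null and 0.543 ± 0.249 TPM in Plin2+/+ fasted livers (interval of the log2 difference -0.01 to 1.35; edgeR adjusted p = 0.243). Selenbp2 (1.5 ± 0.966 and 1.24 ± 0.569 TPM in Plin2-null and Plin2+/+ fasted livers; log2 difference 0.29 ± 0.62, SE) had an edgeR adjusted p of 0.804, and Serpina4-ps1 (6.44 ± 5.84 and 6.43 ± 3.58 TPM; log2 difference 0.00 ± 0.71, SE) one of 0.998.

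In fed livers the group means lay close together. Car3 was at 1607 ± 697 TPM in Plin2-null and 1683 ± 241 TPM in Plin2+/+ fed livers, Serpina4-ps1 at 143 ± 100 and 158 ± 84.8 TPM, Selenbp2 at 76.1 ± 53.2 and 59.2 ± 39 TPM, Hsd3b2 at 24.7 ± 2.29 and 25.3 ± 5.24 TPM, and Prok1 at 8.04 ± 7.35 and 8.79 ± 4.12 TPM (Plin2-null before Plin2+/+ in each; SD, n = 5 each). The fitted differences were -0.17 ± 0.45, -0.19 ± 0.64, 0.27 ± 0.48, -0.12 ± 0.27 and -0.20 ± 0.53 on the log2 scale in the same order (SE), each with an edgeR adjusted p of 1. The narrowest of the 95% intervals was that of Hsd3b2, -0.65 to 0.40.

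The difference of the fasting responses between genotypes was tested as an interaction, which called 0 of the 16312 genes with edgeR (0%), 2250 at an unadjusted p under 0.05 (Car3 among them) and 63 with DESeq2, which held none of the 5 genes. It was 1.62 ± 0.65 for Car3 (log2, SE; edgeR adjusted p = 0.305, unadjusted p = 0.0234), 1.97 ± 1.32 for Prok1, 0.79 ± 0.44 for Hsd3b2, 0.19 ± 0.96 for Serpina4-ps1 and 0.02 ± 0.76 for Selenbp2. The choice of the 5 genes drew on both fasting responses that this interaction compares, so its p-values are not independent of the choice. Serpina4-ps1 was within the ranks of the choice in Plin2-null mice alone.

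**Figure D3:**
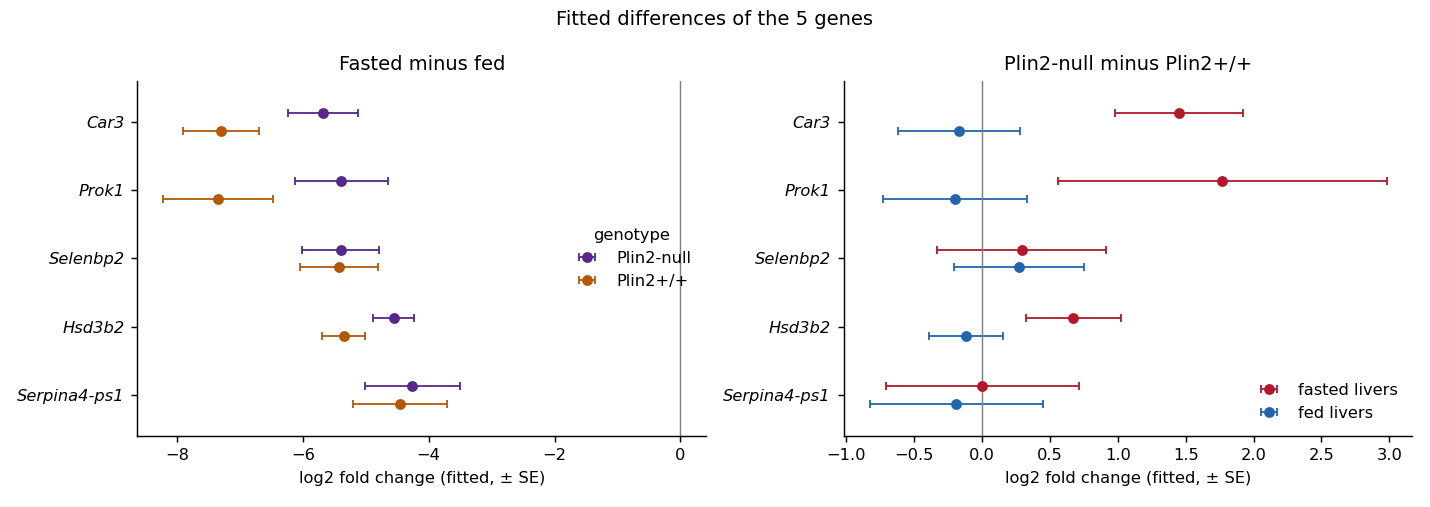
Fitted log2 differences of the 5 genes (± SE), fasted minus fed on the left for Plin2-null and Plin2+/+ mice, and Plin2-null minus Plin2+/+ on the right for fasted and fed livers. The fasting differences lie between -7.35 and -4.26, and the genotype difference of Car3 in fasted livers, 1.45, has the smallest error relative to its size on the right.

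Animals of the same group differed widely in the 5 genes, apart from Hsd3b2 in fed livers. The choice asked for a called difference and for groups that did not overlap, both of which depend on the spread within groups, so the spread is a description with no test. The SD of log2 CPM within groups was 1.18 for Serpina4-ps1, 1.01 for Prok1, 0.834 for Selenbp2, 0.805 for Car3 and 0.584 for Hsd3b2, against a median of 0.209 over 9188 genes with a mean of at least 5 CPM. Of those genes 99.6%, 99.4%, 98.9%, 98.8% and 96.8% had a lower SD. Prok1, Hsd3b2 and Selenbp2 reached that mean through their fed libraries, as their fasted libraries held 1 to 25, 15 to 117 and 17 to 91 counts. Low counts thus enter their SDs, and nothing is read from these shares. The feeding state in which animals differed was not the same. Car3 and Hsd3b2 had SDs of 1.06 and 0.8 in fasted livers against 0.414 and 0.202 in fed livers, while Selenbp2 and Serpina4-ps1 had 0.644 and 1.01 in fasted against 0.988 and 1.32 in fed livers. For Prok1 no order is read: at its few fasted counts the prior count of 2 in log2 CPM narrows the spread, and in TPM the highest library held 10.6 times the lowest in Plin2-null fasted against 9.73 times in Plin2-null fed, and 10.9 times in Plin2+/+ fasted against 3.51 times in Plin2+/+ fed livers.

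The 5 genes did not vary as 1 set within groups. Each library's deviation from its group mean of log2 CPM was compared over the 20 libraries for the 10 pairs of genes, by permutation within groups (100000 resamples, two-sided, Benjamini-Hochberg adjustment over the 10 pairs). Prok1 and Serpina4-ps1, on different chromosomes, varied together, with Pearson's r = 0.83 (permutation p = 0.00012, adjusted p = 0.0012) and Spearman's rho = 0.85 (permutation p = 0.0002, adjusted p = 0.002). Without the 2 libraries farthest from the median on Prok1, r was 0.80. Of all tested genes 0.00613% had an r as high with Prok1 and 0.0123% with Serpina4-ps1. Both genes were high in Plin2-null fasted replicates 1 and 5, in Plin2+/+ fasted replicate 5, in Plin2-null fed replicates 1 and 5 and in Plin2+/+ fed replicates 1, 2 and 5. Both were lowest in Plin2-null fasted replicates 2 and 4, in Plin2-null fed replicate 4 and in Plin2+/+ fed replicate 3. In the 10 fed libraries alone, where Prok1 had 92 to 1083 counts, r was 0.80 (adjusted permutation p = 0.0195). Prok1 had 1 to 25 counts in the fasted libraries, too few for a relation among these alone to be read. Over all 20 libraries r was 0.83 with each library's trend with GC content removed.

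Car3 and Hsd3b2 also varied together over all libraries (Pearson's r = 0.74, permutation p = 0.00724, adjusted p = 0.0362), but the relation rested on fasted animals. In the 10 fasted libraries r was 0.85 (adjusted permutation p = 0.0242) and in the 10 fed libraries -0.32 (adjusted permutation p = 0.727). Spearman's rho was 0.54 (permutation p = 0.0472, adjusted p = 0.132), and without the 2 libraries farthest from the median on Car3 r was 0.49, so the relation rests on those. These were replicate 5 of the Plin2+/+ fasted and replicate 4 of the Plin2-null fasted livers, low in both genes. Leaving out any of the 5 Plin2+/+ fasted replicates, or Plin2-null fasted replicate 1, 4 or 5, moved the adjusted p above 0.05, with r between 0.63 and 0.75.

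Selenbp2 did not pass with either gene over all libraries. Over all 20 libraries r was 0.58 with Prok1 and 0.50 with Serpina4-ps1 (Spearman's rho 0.55 and 0.47; permutation p = 0.0278 and 0.0619, adjusted p = 0.0926 and 0.155). Both passed without Plin2+/+ fed replicate 1 (r = 0.69 and 0.65, adjusted permutation p = 0.035 and 0.0351), and that with Prok1 also without Plin2+/+ fed replicate 4 (r = 0.71, adjusted permutation p = 0.0254). With Serpina4-ps1 r was 0.90 among the 10 fasted libraries alone (adjusted permutation p = 0.0242) and 0.30 among the 10 fed libraries (adjusted permutation p = 0.727). With Prok1 it was 0.46 among the fed libraries (adjusted permutation p = 0.714). Whether fasted and fed libraries differ in this was not tested. In fed livers Selenbp2 ran against Hsd3b2, with r = -0.86 (adjusted permutation p = 0.0195), which was -0.16 over all libraries. The 6 remaining pairs over all 20 libraries, among them Car3 with Prok1 (r = -0.05) and Car3 with Serpina4-ps1 (r = -0.06), had an adjusted permutation p of 0.932.

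**Figure D4:**
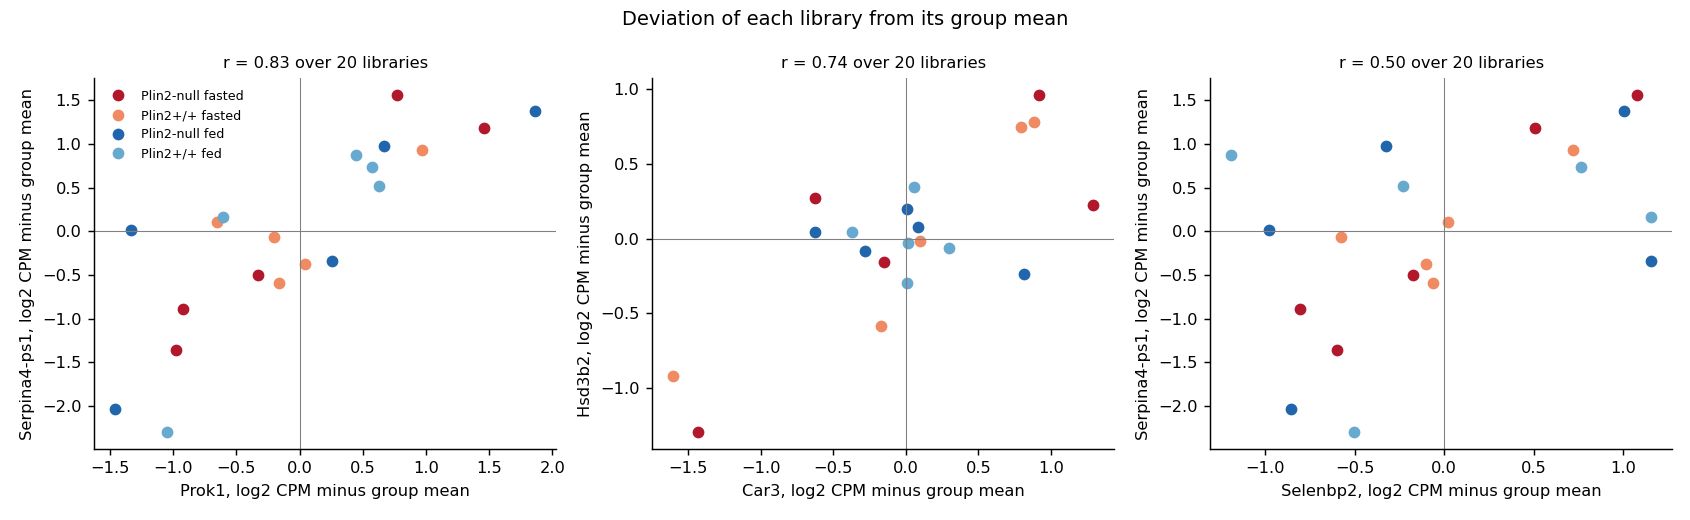
Each library's deviation from its group mean in log2 CPM, for Prok1 against Serpina4-ps1, Car3 against Hsd3b2, and Selenbp2 against Serpina4-ps1, with 1 point per library coloured by group. The points follow a line in the Prok1 panel (r = 0.83), while in the Car3 panel (r = 0.74) the fed libraries cluster near 0 on the Hsd3b2 axis.

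The genes whose pattern over the 20 libraries came closest to each of the 5 were found by the root mean square difference of log2 CPM, each gene centred on its mean, among 8824 genes. This measure includes the fasted to fed gap on which the 5 genes were chosen. Genes that fall as steeply, the 5 themselves among them, therefore come out near by construction, and nothing is read from it. Hsd3b2 had the closest match, Cyp2c70, a bile acid hydroxylase of mice, at 0.50, and the sterol synthesis enzyme Fdps stood at 0.68. Car3 was closest to Hsd3b2 at 1.00, to Fdps at 1.15 and to Prok1 at 1.29. Prok1 was closest to Fdps at 0.83, to Selenbp2 at 0.91 and to Mvd, another sterol synthesis enzyme, at 0.97. Selenbp2 stood at 0.88 from Fdps and at 0.89 from Mvd, and Serpina4-ps1 was closest to the fatty acid carrier Fabp5 at 0.95, to Keg1 at 0.99 and to the organic anion transporter Slco1a1 at 1.06. Among these, Cyp2c70 was at -4.11 ± 0.33 in Plin2-null and -4.41 ± 0.34 in Plin2+/+ mice, and Fdps at -4.47 ± 0.39 and -5.94 ± 0.44 (fasted minus fed, log2, SE).

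Families of the 5 genes did not move as blocks. Among the other 11 carbonic anhydrases tested, 6 fell and 1 rose on fasting in Plin2-null and 7 fell and 0 rose in Plin2+/+ mice, beside 18.1% and 21.7% of all tested genes that fell and 18% and 20.9% that rose in these genotypes. Car1, an isoform best known from red cells that neighbours Car3, fell to 0.929 ± 0.338 TPM in Plin2-null fasted, against 7.31 ± 1.04 TPM in fed livers, and to 0.445 ± 0.389 TPM in Plin2+/+ fasted, against 7.28 ± 2.16 TPM in fed livers (SD, n = 5 each). The mitochondrial isoforms Car5a and Car5b, which supply bicarbonate for urea and glucose synthesis, fell by less, with log2 differences of -1.22 ± 0.25 and -2.03 ± 0.22 in Plin2-null and -1.78 ± 0.25 and -1.74 ± 0.21 in Plin2+/+ mice (SE). Car2, the fast cytosolic isoform and the neighbour of Car3 on its other side, rose in Plin2-null mice (1.17 ± 0.18, edgeR adjusted p = 3.34e-05) and did not pass the test in Plin2+/+ mice (0.45 ± 0.18, edgeR adjusted p = 0.0502). It was the 1 carbonic anhydrase called between genotypes in fasted livers, at 13.7 ± 4.54 TPM in Plin2-null against 8.18 ± 1.7 TPM in Plin2+/+ livers (log2 difference 0.78 ± 0.18, edgeR adjusted p = 0.0293).

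Among the other 4 tested 3beta-hydroxysteroid dehydrogenase genes, 2 fell in Plin2-null and 3 in Plin2+/+ mice, and 0 rose. Of all tested genes 18.1% and 21.7% fell and 18% and 20.9% rose in these genotypes. Hsd3b3, which lies next to Hsd3b2, fell to 4.32 ± 1.6 TPM in Plin2-null fasted, against 55.4 ± 8.27 TPM in fed livers, and to 2.86 ± 0.794 TPM in Plin2+/+ fasted, against 57 ± 8.34 TPM in fed livers (SD, n = 5 each). Hsd3b5, a male-biased 3-ketosteroid reductase of mouse liver, fell further than any of the 5 genes in Plin2-null mice, to 0, 3, 1, 8 and 0 counts in fasted against 128 to 1759 counts in fed livers. In Plin2+/+ mice it fell to 1 to 17 counts in fasted against 322 to 3167 counts in fed livers. Hsd3b7, the bile acid synthesis enzyme on chromosome 7, did not pass the test in either genotype (-0.07 ± 0.16 in Plin2-null and -0.01 ± 0.16 in Plin2+/+ mice; edgeR adjusted p = 0.756 and 0.962).

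Of the other 17 tested Serpina genes, 7 fell and 1 rose in Plin2-null and 8 fell and 1 rose in Plin2+/+ mice, against the same shares of all tested genes (18.1% and 21.7% lower, 18% and 20.9% higher). Serpina6, which encodes corticosteroid-binding globulin, fell to 31.7 ± 9.52 TPM in Plin2-null fasted, against 422 ± 99.3 TPM in fed livers, and to 32.1 ± 18.1 TPM in Plin2+/+ fasted, against 420 ± 81.8 TPM in fed livers (SD, n = 5 each). Serpina9 held 0 to 2 counts per fasted library in both genotypes, against 10 to 600 counts in Plin2-null fed and 54 to 557 counts in Plin2+/+ fed livers. The alpha-1-antitrypsin gene Serpina1b did not pass the test (-0.27 ± 0.13 in Plin2-null and -0.05 ± 0.13 in Plin2+/+ mice; edgeR adjusted p = 0.108 and 0.803), and Serpina3n, an acute phase inhibitor, rose (0.81 ± 0.20 and 1.04 ± 0.20; edgeR adjusted p = 0.00369 and 0.000305). Serpina1a to Serpina1e, and the Serpina3 genes among themselves, are near copies, so their single values are uncertain.

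**Figure D5:**
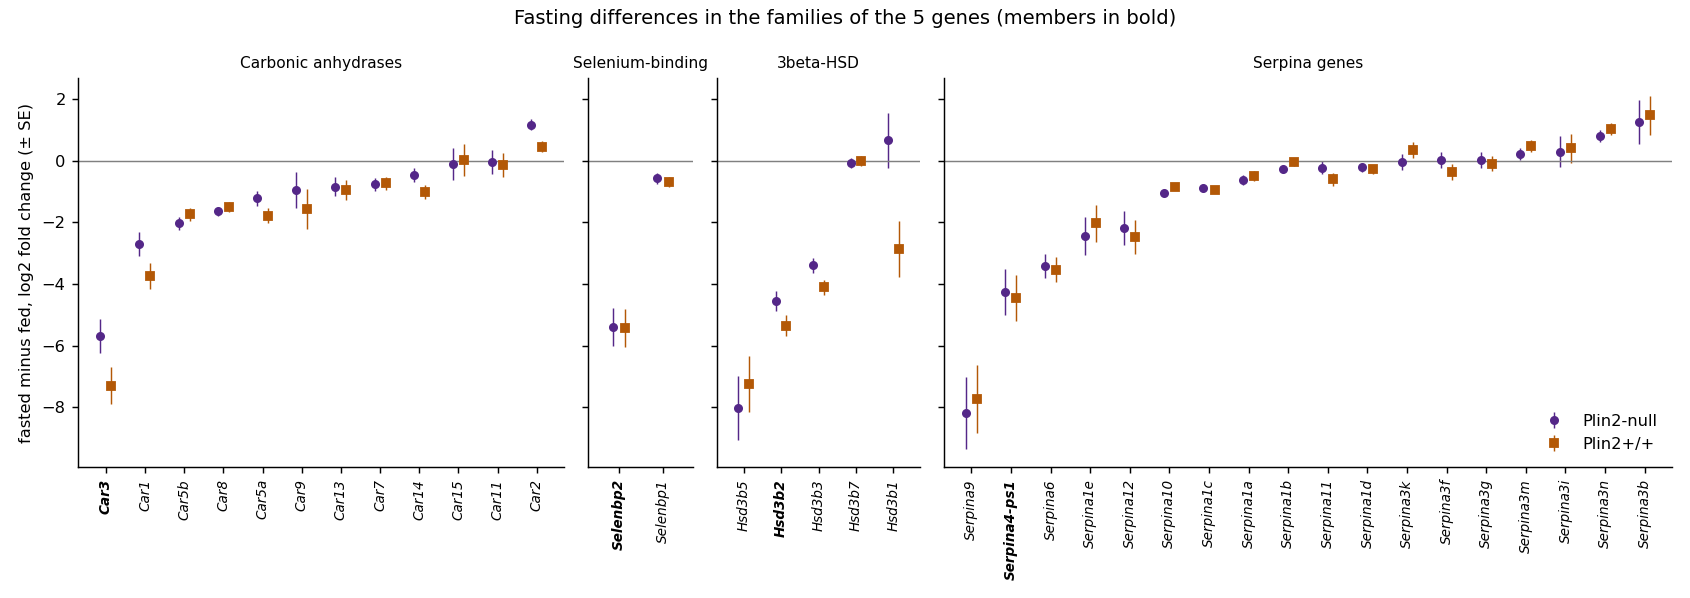
Fitted fasted minus fed differences (log2, ± SE) for every tested carbonic anhydrase, selenium-binding protein, 3beta-hydroxysteroid dehydrogenase and Serpina gene, in Plin2-null mice (circles) and Plin2+/+ mice (squares), with Car3, Selenbp2, Hsd3b2 and Serpina4-ps1 in bold. Selenbp1 stands closer to 0 than Selenbp2, Car2 stands above 0, and the values of Hsd3b5 and Serpina9 rest on fasted libraries with few or 0 counts.

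Of the 5 genes 4 lie on chromosome 3, which holds 5.27% of the tested genes, and Selenbp2 (ENSMUSG00000068877; plus strand, 94693556 to 94704413), Hsd3b2 and Prok1 lie within 12.5 Mb. Their near neighbours followed them unevenly. Within 250 kb of Hsd3b2, 2 of 5 tested genes fell in Plin2-null and 4 of 5 in Plin2+/+ mice. Within the same distance of Serpina4-ps1 5 and 6 of 12 fell, of Selenbp2 4 and 3 of 11, of Prok1 1 and 1 of 4, and of Car3 2 and 2 of 3, beside 18.1% and 21.7% of all tested genes in these genotypes. Near Selenbp2 2 and 2 rose and near Car3 1 and 0, beside 18% and 20.9% of all tested genes, and no neighbour of Hsd3b2, Serpina4-ps1 or Prok1 rose. Many of these neighbours are family members already counted above, so they are not a separate result.

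Liver genes of steroid hormone metabolism, the pathway of Hsd3b2, mostly fell: of 13 tested, 8 fell and 2 rose in Plin2-null and 10 fell and 2 rose in Plin2+/+ mice, beside 18.1% and 21.7% of all tested genes that fell. By the smaller adjusted p of the pair of genotypes, which also ranks the lists that follow, the leading 4 were Hsd17b2, which oxidises oestradiol and testosterone, Akr1c6, a 17beta-hydroxysteroid dehydrogenase, Srd5a2, a steroid 5alpha-reductase, and Cyp17a1, the 17alpha-hydroxylase. Hsd17b2 fell in both genotypes (edgeR adjusted p = 3.54e-06 in Plin2-null and 6.76e-08 in Plin2+/+ mice), by 1.32 on the log2 scale in Plin2+/+ mice. In Plin2-null and Plin2+/+ mice Akr1c6 was at -2.38 ± 0.26 and -2.30 ± 0.26, and Srd5a2 at -2.13 ± 0.25 and -1.47 ± 0.24 (log2, SE). Cyp17a1 rose by 2.81 ± 0.38 and 3.56 ± 0.39 (edgeR adjusted p = 1.39e-05 and 9.73e-07). The other gene that rose, named after its values were seen, was Sult1e1, the oestrogen sulfotransferase, at 3.03 ± 0.89 and 4.86 ± 1.01 (edgeR adjusted p = 0.013 and 0.000785). The median log2 difference of the 13 was -1.12 and -1.21, against -0.006 and -0.007 over all tested genes.

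Hsd3b2 and Selenbp2 are known as male-biased genes of mouse liver, and here they were measured in females. Of 18 other tested genes with this bias, 10 fell in Plin2-null and 12 in Plin2+/+ mice, and 0 rose. Of all tested genes 18.1% fell and 18% rose in Plin2-null and 21.7% fell and 20.9% rose in Plin2+/+ mice, which is also the background of the next lists. The smallest adjusted p belonged to the complement genes C8a (-2.02 ± 0.15 in Plin2-null and -1.82 ± 0.15 in Plin2+/+ mice; log2, SE) and C8b (-1.66 ± 0.16 and -1.47 ± 0.16), to Slco1a1 (-3.66 ± 0.33 and -2.63 ± 0.31) and to Alas2, a haem synthesis enzyme of red cell precursors (-1.05 ± 0.18 and -1.58 ± 0.18). Of 26 female-biased genes, 5 fell and 5 rose in Plin2-null and 8 fell and 5 rose in Plin2+/+ mice. Besides Cyp17a1, the smallest adjusted p in that list belonged to the flavin monooxygenase Fmo2, which rose (1.18 ± 0.20 and 1.90 ± 0.20), to the transporter Slc22a26 (-1.81 ± 0.25 and -1.44 ± 0.25) and to Prom1 (-2.23 ± 0.47 and -2.68 ± 0.48), which fell. In the growth hormone pathway 9 of 17 tested genes fell and 2 rose in Plin2-null and 7 fell and 2 rose in Plin2+/+ mice. The receptor Ghr was at -1.63 ± 0.16 and -1.68 ± 0.16, the prolactin receptor Prlr at -1.57 ± 0.17 and -1.53 ± 0.17, Igf1, a target of growth hormone, at -1.09 ± 0.16 and -1.21 ± 0.16, and Igfals, which encodes a partner of IGF1 in serum, at -1.07 ± 0.24 and -1.98 ± 0.24. Bcl6, given because its element is shown above, did not pass the test (0.04 ± 0.61 and -0.73 ± 0.62; edgeR adjusted p = 0.967 and 0.366).

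In whole liver, fewer cells of a type and less RNA per cell cannot be told apart. Car3 is abundant in fat and muscle and Hsd3b2-type enzymes in steroid-making glands, so the markers of these tissues were measured. Over 11 adipocyte markers the summed level was 27 to 38.5 CPM in Plin2-null fasted, 25.9 to 34.1 in Plin2+/+ fasted, 27.2 to 60.9 in Plin2-null fed and 37.9 to 168 in Plin2+/+ fed livers. Cfd, Retn and Lep were at 0 in all 20 libraries, and Adipoq and Plin1 at no more than 0.103 and 0.129 CPM. The 4 tested were Lpl, Fabp4, Pparg and Adrb3, with means of 24.8, 10.6, 4.79 and 2.92 CPM. On fasting Lpl fell in Plin2+/+ mice (-2.52 ± 0.46, log2, SE) but did not pass in Plin2-null mice (-0.92 ± 0.44, edgeR adjusted p = 0.112). In Plin2-null and Plin2+/+ mice Adrb3 fell (-1.56 ± 0.20 and -0.76 ± 0.20) and Fabp4 rose (0.62 ± 0.22 and 0.57 ± 0.22). Pparg rose in Plin2-null mice alone (0.52 ± 0.16). Over 10 skeletal muscle markers the sum was 0.583 to 0.801 CPM in Plin2-null fasted, 0.649 to 0.9 in Plin2+/+ fasted, 0.467 to 1.05 in Plin2-null fed and 0.493 to 0.849 in Plin2+/+ fed livers, with Acta1 and Ckm at no more than 1 count. Over 9 markers of steroidogenic glands it was 12.5 to 17 CPM in Plin2-null fasted, 11.3 to 19.5 in Plin2+/+ fasted, 16.5 to 24.8 in Plin2-null fed and 19.8 to 24.7 in Plin2+/+ fed livers, and Cyp11a1, Cyp11b1 and Cyp21a1 reached no more than 0.163, 0.163 and 0.224 CPM. The 2 tested were Fdx1 and Star, with means of 17.5 and 1.17 CPM. Fdx1 fell, at -0.61 ± 0.15 in Plin2-null and -0.47 ± 0.15 in Plin2+/+ mice (log2, SE). Star did not pass the test (edgeR adjusted p = 0.565 and 0.973).

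Hepatocytes of the periportal and the pericentral zone carry different genes, and neither zone's list moved as a block with the 5 genes. Of 12 pericentral markers, 3 fell and 2 rose in Plin2-null and 4 fell and 3 rose in Plin2+/+ mice, and of 10 periportal markers 5 fell and 3 rose in both. Among the pericentral markers Rgn (regucalcin) fell, at -2.58 ± 0.24 in Plin2-null and -2.93 ± 0.24 in Plin2+/+ mice (log2, SE), as did Cyp1a2 (-1.79 ± 0.24 and -2.62 ± 0.24), while Oat, ornithine aminotransferase, rose (1.09 ± 0.17 and 1.17 ± 0.17). The glutamate transporter Slc1a2 rose in Plin2+/+ mice (0.81 ± 0.15) and was at -0.05 ± 0.15 in Plin2-null mice. Among the periportal markers Hsd17b13, a lipid droplet protein, rose (1.45 ± 0.13 and 1.33 ± 0.13), as did the urea cycle enzyme Arg1 (1.28 ± 0.19 and 1.31 ± 0.19), while Cyp2f2 (-0.77 ± 0.12 and -1.32 ± 0.12) and Aldh1b1, a mitochondrial aldehyde dehydrogenase (-1.25 ± 0.29 and -2.18 ± 0.30), fell. Markers of some other liver cells were lower in fasted livers: in Plin2-null and Plin2+/+ mice 5 and 8 of 11 Kupffer cell and macrophage markers fell, as did 5 and 6 of 8 stellate cell markers, and no marker of either list rose. The background for these and for the zonal lists was 18.1% of tested genes lower and 18% higher in Plin2-null and 21.7% lower and 20.9% higher in Plin2+/+ mice. The summed Kupffer cell and macrophage markers overlapped in Plin2-null mice, at 367 to 472 CPM in fasted and 370 to 884 CPM in fed livers. In Plin2+/+ mice every fasted library lay below every fed one, at 245 to 433 against 452 to 623 CPM. The summed stellate cell markers overlapped in both genotypes (330 to 450 against 385 to 504 CPM in Plin2-null, 313 to 441 against 369 to 624 CPM in Plin2+/+ mice). The summed cholangiocyte markers did not overlap in either genotype. They were at 17 to 25.8 against 30 to 48.3 CPM in Plin2-null and 12.2 to 23.3 against 33.2 to 51.3 CPM in Plin2+/+ mice. Most of this sum was Spp1, with a mean of 23 CPM against 4.51 for Sox9, 0.741 for Epcam, 0.726 for Krt19 and 0.422 for Krt7. Of the 5 tested, Spp1 alone fell in Plin2-null mice, and 3 fell in Plin2+/+ mice. Summed neutrophil markers were higher in Plin2-null fasted than fed livers (9.17 to 12.2 against 3.9 to 6.67 CPM) and overlapped in Plin2+/+ mice. Those of sinusoidal endothelial and red blood cells overlapped in both genotypes. The part of these cell types in the results on the 5 genes was not tested.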

How the data were processed

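Per the labels' protocols, mRNA of 20 mouse livers was sequenced with its strand kept. The deposited counts are whole reads per gene, made by the authors with HISAT2 1.2.1 and featureCounts 1.4.6-p1, per the submitters' processing notes, which list GRCh38 although the gene IDs are those of mouse. The deposited TPM values are scaled to gene length by the authors, and each of the 20 TPM columns followed its own library over 7109 genes. Symbols matched 55141 of 55487 IDs. No replicates of a group agreed within sampling noise (chi-square over degrees of freedom was at least 45.3 in all 40 pairs).

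Counts of all 20 libraries were fitted with edgeR 4.0.16 (R 4.3.3; filterByExpr, TMM scaling, robust quasi-likelihood test, 1 coefficient per group), with Benjamini-Hochberg adjustment over 16312 genes and a threshold of 0.05. Scripts were tested on simulated data. Alternatives used DESeq2 1.42.0, limma 3.58.1 on log2 TPM with a pseudocount of 1 or 0.1, other scalings, no filter, a stricter filter (at least 1 CPM in 10 libraries), the groups compared alone and each library left out in turn. Permutations used numpy 2.4.6 and alignments Biopython 1.88. Sequences are from RefSeq. The members, lists and tests were chosen with earlier results of these data known. Genes named besides the 5 are members of their families, up to 3 genes closest in pattern to each, those next to the rank limit of the choice (1 gene that both rules name is not reported here), and up to 4 genes by smallest adjusted p in each other list described, with exceptions stated; defining markers of other tissues are named for being at or near 0.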

Additional observations from a re-analysis of the deposited data

Results flagged for a closer look

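In 3 of 20 combinations of gene and group, 1 library stood apart by Dixon's test at the 95% level, where chance marks about 1 in 20. Car3 in Plin2+/+ fed livers had its lowest library, replicate 2, at 1268 TPM, and the gap to the next was 0.761 of the whole range. Prok1 in Plin2+/+ fasted livers had its highest library at 0.128 TPM (gap over range 0.759), and Serpina4-ps1 in the same group at 12.8 TPM (0.853). Both values belong to replicate 5, in which Prok1 rests on 6 counts.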

How the results depend on the processing

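As the 5 genes were chosen for falling on fasting, it is no check on them that their fasting differences kept their sign under every alternative run. Their size moved on log2(TPM + 1), to -2.59 in Plin2-null and -3.09 in Plin2+/+ mice for Prok1, to -3.83 and -4.09 for Hsd3b2 and, in Plin2+/+ mice, to -4.53 for Selenbp2, and on log2(TPM + 0.1) to -5.77 for Prok1 in Plin2+/+ mice. No gene of the lists that passed the test changed sign with RLE size factors or library size alone. Library size alone shifted the median of all genes by -0.214 in Plin2-null and -0.162 in Plin2+/+ mice (fasted minus fed, log2). Car2 in Plin2+/+ mice was called higher with RLE size factors. Genes lower in Plin2-null fasted livers (2954) were 4566 on log2(TPM + 1) and 4561 on log2(TPM + 0.1). The 3 genes called between genotypes in fed livers were 7 with DESeq2. The 528 called in fasted livers were 1433 with DESeq2, 108 with library size alone, 319 with no filter, 27 on log2(TPM + 1), 39 on log2(TPM + 0.1) and 104 with the groups compared alone. They ran from 13 without Plin2+/+ fasted replicate 2 to 1794 without Plin2+/+ fasted replicate 5, and moved by over 1.5 times for 10 of 20 libraries left out. The interaction (0 genes) called 63 with DESeq2, 1 with no filter, 2 with the stricter filter and 0 to 1 with a library left out. Of the 5 genes, 0 were called between genotypes in fasted livers, 1 (Car3) with DESeq2 and 0 to 1 with a library left out. Of the pairs varying together (2), 1 passed with Spearman's rho, 1 on log2(TPM + 1), 4 in fasted libraries alone (2 of them with Prok1, at 1 to 25 counts) and 1 to 4 with a library left out. Car3 and Hsd3b2 reversed in fed libraries alone (r = -0.32), where a change of sign is called reversed if the value passed its threshold in either setting. The cause was not tested. The removal of the GC trend was added after seeing the data. No paired analysis was possible because each title carries its own number. Depth limits Prok1 in fasted livers most, at 1 to 25 counts per library.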

Other observations

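Other cell types were measured through lists of their markers. The background for each of these lists was 18.1% of tested genes lower and 18% higher in Plin2-null and 21.7% lower and 20.9% higher in Plin2+/+ mice. Of 10 general hepatocyte markers 3 fell and 1 rose in Plin2-null and 3 fell and 3 rose in Plin2+/+ mice on fasting. Both tested pancreatic acinar markers fell in each genotype, and of 8 sinusoidal endothelial markers 2 fell and 2 rose in Plin2-null and 3 fell and 2 rose in Plin2+/+ mice. Over 10 acinar markers the summed level did not overlap between fasted and fed livers. It was 3.72 to 5.95 against 15.1 to 27.9 CPM in Plin2-null and 2.74 to 4.25 against 8 to 20.5 CPM in Plin2+/+ mice. This sum was mostly Cela1, with a mean of 10.5 CPM, while Cela2a, the other tested marker, had 0.17 CPM. Prss1, Cela3b, Cpb1 and Amy2a1 were at 0 in all 20 libraries, so the sum describes 1 gene and not acinar tissue. Of 5 tested red blood cell markers 1 fell in each genotype, of 5 cholangiocyte markers 1 fell in Plin2-null and 3 in Plin2+/+ mice, and of 4 neutrophil markers 2 rose in each.

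The genes that varied most like each of the 5 within groups were chosen after their values were seen and are given with no test, over 8824 genes in the same 20 libraries. Hsd3b2 had r = 0.94 with Rgn (regucalcin), 0.89 with the monoamine oxidase Maoa and 0.87 with the glutathione transferase Gsta3. Car3 had r = 0.88 with the ribosomal protein gene Rpl35a, 0.86 with Snrpe, a spliceosome gene, and 0.86 with Rps24, another ribosomal protein gene. Selenbp2 had r = 0.83 with Mug2, a murinoglobulin, and 0.77 with Fabp5. Serpina4-ps1 had r = 0.84 with the stress response gene Ppp1r15a and 0.79 with Jun. For Prok1 the highest value, 0.83, was that with Serpina4-ps1.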
